A study of Mus musculus with 131 samples.

Results

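H3K27ac was compared between hepatocytes of wild-type mice (WT) and of mice that lost Tet2 and Tet3 in hepatocytes after birth (DKO). All peaks of both lists were used, 43085 in WT and 46782 in DKO. These 89867 peaks were drawn from 804494 peaks in the 13 lists of ChIP-Seq, ATAC-Seq and 5hmC of the series. There was 1 library per genotype, so the differences in H3K27ac have no replicate check, no p value was calculated for them, and the 95% Wilson intervals given with shares cover counting over peaks only.

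Acetylation of histone H3 at lysine 27 marks nucleosomes at active promoters and enhancers, and is placed by the acetyltransferases p300 and CBP. H3K4me1 marks enhancers whether or not they are active, so that the combination of both marks separates active elements from primed ones. TET enzymes oxidise methylated cytosine to 5-hydroxymethylcytosine (5hmC), a step towards removal of the methyl group, and many liver enhancers lose DNA methylation as hepatocytes mature.

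Both ChIP-Seq libraries were made from hepatocytes of C57Bl mice at 15 weeks. The DKO mice carried floxed Tet2 and Tet3 and received AAV8-Cre at 1 day of age, with Cre driven by the hepatocyte-specific Tbg promoter. The labels give no virus injection for the WT mice of the ChIP-Seq and bisulfite libraries, so genotype and virus cannot be told apart there. Expression was compared between 3 libraries of DKO and 3 of WT mice, both given the same virus at 1 day and taken at 15 weeks, with 3 libraries of uninjected WT mice as a second control. WGBS was available from 1 library each of newborn WT (1 week), WT and DKO. ATAC-Seq and HNF6 ChIP-Seq, labelled as liver with no age or virus, had 2 libraries per genotype, and the 5hmC list came from younger WT mice only. Hepatocytes were sorted by size and by absence of CD45, a leukocyte marker. There is 1 list per genotype, and it is not stated whether mice were pooled. Whole-gene FPKM of Tet2 (2.13, 1.63 and 0.89 in controls, 4.08, 2.82 and 3.16 in DKO) also counts exons outside the floxed part and does not check the deletion.

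Sequences at some of the strongest differences are shown first, from the mm9 genome on the + strand, because CG pairs, in capitals, are the positions at which WGBS reads methylation. The first 4 lie in WT peaks with no DKO peak, and the last 2 lie in DKO peaks with no WT peak. The windows are 300 bp around the peak centre. The tiles are the 200 bp WGBS tile of the peak with the largest gain of methylation in DKO over adult WT. They were chosen after their values were seen. The Tnfaip8l1 tile is chr17:56305401-56305600 in the gene body, the Fam65b window chr13:24639329-24639628 between genes, and the Atp9a tile chr2:168559201-168559400 in a peak that reaches the promoter. The Hhipl1 window is chr12:109550135-109550434 in the gene body, the Dagla window chr19:10311962-10312261 and the Mrpl14 window chr17:45903248-45903547, each named by the gene whose start is nearest to the peak.
Tnfaip8l1 tile: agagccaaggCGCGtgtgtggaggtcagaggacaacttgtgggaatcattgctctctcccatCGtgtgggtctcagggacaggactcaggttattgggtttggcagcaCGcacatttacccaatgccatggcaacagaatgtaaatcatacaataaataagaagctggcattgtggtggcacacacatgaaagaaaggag
Fam65b window: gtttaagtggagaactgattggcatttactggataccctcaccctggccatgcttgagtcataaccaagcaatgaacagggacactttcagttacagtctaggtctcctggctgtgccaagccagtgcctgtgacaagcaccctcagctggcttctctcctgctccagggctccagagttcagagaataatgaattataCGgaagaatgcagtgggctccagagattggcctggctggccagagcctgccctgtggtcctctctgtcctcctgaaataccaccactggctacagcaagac
Atp9a tile: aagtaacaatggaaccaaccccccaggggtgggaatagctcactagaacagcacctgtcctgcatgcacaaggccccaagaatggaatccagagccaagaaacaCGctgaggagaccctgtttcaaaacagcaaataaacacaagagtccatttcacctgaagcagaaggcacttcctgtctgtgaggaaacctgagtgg
Hhipl1 window: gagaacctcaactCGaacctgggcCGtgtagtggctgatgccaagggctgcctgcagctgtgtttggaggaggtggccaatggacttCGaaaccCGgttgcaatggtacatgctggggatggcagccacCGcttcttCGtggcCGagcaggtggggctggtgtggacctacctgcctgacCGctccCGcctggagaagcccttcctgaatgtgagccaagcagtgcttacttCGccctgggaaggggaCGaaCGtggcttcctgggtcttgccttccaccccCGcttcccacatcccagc
Dagla window: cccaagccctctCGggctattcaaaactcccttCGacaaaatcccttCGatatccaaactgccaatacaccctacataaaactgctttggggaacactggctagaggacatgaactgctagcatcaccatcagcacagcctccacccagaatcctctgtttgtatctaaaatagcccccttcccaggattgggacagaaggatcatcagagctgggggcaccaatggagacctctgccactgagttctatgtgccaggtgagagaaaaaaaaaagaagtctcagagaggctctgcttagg
Mrpl14 window: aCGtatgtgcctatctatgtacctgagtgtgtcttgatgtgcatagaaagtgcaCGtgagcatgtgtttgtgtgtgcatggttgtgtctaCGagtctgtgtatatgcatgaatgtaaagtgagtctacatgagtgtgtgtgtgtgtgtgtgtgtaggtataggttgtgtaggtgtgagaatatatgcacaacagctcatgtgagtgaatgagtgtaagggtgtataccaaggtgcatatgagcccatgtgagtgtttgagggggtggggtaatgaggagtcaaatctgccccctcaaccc

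The 4 CG pairs of the Tnfaip8l1 tile were methylated to 57.7% in newborn, 2.60% in WT and 78.9% in DKO. The 1 CG pair in the Fam65b window gave its tile 92.9% in newborn, 4% in WT and 90.9% in DKO, and the 1 CG pair of the Atp9a tile 63.2%, 3.57% and 86.5%. Over the 3 tiles that touch the Hhipl1 window, which holds 13 CG pairs, the means were 79.3%, 12.9% and 76.3%. In all 4, methylation was low in adult WT and high in newborn and DKO, but they were chosen for it and do not stand for whole peaks. The 300 bp centre windows of the other strongest lost peaks gained less, from 84.1% in WT to 88.2% in DKO at Tnfaip8l1, 59.4% to 73.9% at Atp9a, 68.3% to 82.1% at Acadm and 75.5% to 90.3% at Gcgr. Among the windows of new peaks, Mrpl14 had 55.3% in newborn, 50.5% in WT and 54.3% in DKO, a small difference, and Dagla 88.1%, 96.1% and 79.5%. The window at Hjurp, another strong new peak, had 40.2%, 42.0% and 64.5%.

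The lists differed in about 4 of 10 peaks, and nearly all of these were weak. Of the WT peaks, 14866 (34.5%, interval 34.1 to 35) had no DKO peak sharing a base and are called lost here. Of the DKO peaks, 19009 (40.6%, 40.2 to 41.1) had no WT peak and are called new. A peak that stayed just under the calling threshold in the other library counts as lost or new. The threshold was 15 tags in WT and 14 in DKO, with at least 4-fold over input, and total tags were 30031746 and 27544889. Signal was also more concentrated in DKO, where 34.25% of tags lay in peaks covering 85.7 Mb, than in WT with 24.70% in 77.6 Mb.

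The normalized tag count, scaled to 10000000 tags per library, had a median of 7.66 in lost peaks and 36.3 in shared WT peaks. It was 8.35 in new and 50.5 in shared DKO peaks. Lost peaks held 6.63% of all tags of the WT list and 13.6% of its covered bases, and new peaks 6.78% and 16.5% of those of DKO. The median lost or new peak had the minimum width, given by a peak size of 500 bp, against 1598 bp for shared WT and 1787 bp for shared DKO peaks. Before scaling, the median lost peak rested on 23.0 tags.

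Across 10 groups of equal size by tag count, the lost share fell from 77.8% in the weakest WT group to 0.418% in the strongest. The new share fell from 81.4% to 0.0427%. Between 100 tags (a limit set after the values were seen) and the top of each list, 39 of 6265 WT peaks were lost and 43 of 8786 DKO peaks were new.

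**Figure D1:**
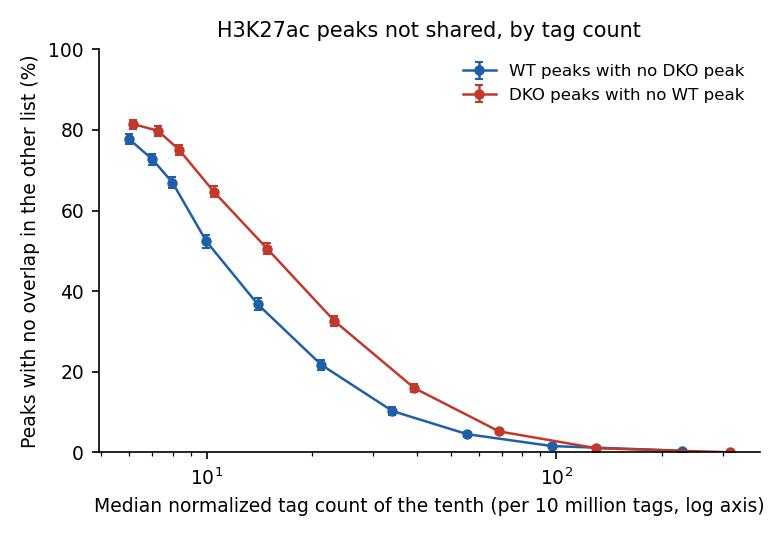
Share of H3K27ac peaks with no overlapping peak in the other genotype (%), for 10 groups of equal size by tag count, against the median normalized tag count of the group (per 10000000 tags, log axis). Blue circles are WT peaks and red circles DKO peaks, with bars for the 95% Wilson interval over peaks; the share falls from 77.8% to 0.418% in WT and from 81.4% to 0.0427% in DKO.

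The count of lost and new peaks depended on the rule. With the DKO list shortened by findPeaks score to the length of the WT list, the shares came close to each other, at 35.7% lost and 36.9% new. When a peak within 1 kb in the other list was enough, 26.7% of WT and 32.8% of DKO peaks stayed without a partner, and when at least 0.5 of the peak had to be covered, 42.8% and 50.6% did. Among upper-scoring peaks, at or above the median score of their list with ties cut by tag count, 17.5% of WT and 22.7% of DKO peaks lacked any partner. The new share was above the lost share under each of these rules.

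At shared peaks, H3K27ac tags were on balance higher in DKO. In 22269 pairs, 1 WT and 1 DKO peak overlapped each other and nothing else. Their median log2 ratio of DKO over WT was 0.56 (a ratio of 1.48), and 73.8% were higher in DKO. The 5th to 95th percentile ran from -1.30 to 1.79. Dividing each library by its own share of tags in peaks, an alternative chosen after seeing the data, brought the median to 0.09. Shared peaks held 93.4% of the tags of the WT list and 93.2% of those of DKO. A median near 0 was therefore largely set by this scaling and is no separate evidence. Against the median of all pairs, 1809 pairs were at least 1 log2 unit above it and 3347 at least 1 below it.

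The largest fall among these pairs was near Jph4, which encodes a junctophilin, with 393.9 tags over 8161 bp in WT and 11.6 over 770 bp in DKO. Falls of similar size lay in Dopey2 (179.1 to 6.17 tags), in Nrg4 (230.4 to 8.71), which encodes a ligand of ErbB receptors, and in Dpy19l3 (136.2 to 5.81). At the promoter of the P450 gene Cyp2c50, 153.2 tags in WT stood against 5.81 in DKO. These broad WT peaks were set against narrow DKO peaks, most of them of the minimum width, and DKO tags outside the called peak are not counted. Per kb of peak the log2 ratios were smaller, at -1.68 for Jph4, -1.10 for Dopey2, -0.97 for Nrg4, -1.17 for Dpy19l3 and -1.28 for Cyp2c50. Among the largest rises, the peak at Snx9 went from 5.66 to 123.1 tags and that at the promoter of the defensin gene Defb1 from 10.7 to 213.8. Those in Thrb (4.99 to 87.1), a thyroid hormone receptor, near Slc37a3 (8.66 to 146.7) and in Lepr (5.99 to 98.7), the leptin receptor, were weak in WT and broad in DKO. Per kb the log2 ratios of these rises were 1.64 at Snx9, 1.10 at Defb1, 0.46 at Thrb, 1.59 at Slc37a3 and 1.90 at Lepr.

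Some of these pairs lay at genes whose RNA differed, tested with limma on log2(FPKM + 1). Cyp2c50 had 286, 194 and 292 FPKM in controls and 13.0, 17.1 and 7.67 in DKO, with no overlap (log2 difference -4.29 ± 0.26 SE, limma adjusted p = 2.46e-07). Dopey2 RNA fell from 7.73, 10.3 and 7.71 FPKM to 1.99, 2.09 and 2.08 (limma adjusted p = 8.78e-05) and Dpy19l3 from 6.28, 5.45 and 4.86 to 1.38, 0.83 and 1.19 (limma adjusted p = 0.0094). Defb1 rose from 0.64, 0.54 and 0.74 to 3.63, 7.84 and 7.09 FPKM (limma adjusted p = 2.75e-05). Lepr also rose, by 0.99 log2 units (limma adjusted p = 0.027), but lost the call when any of 4 libraries was left out, where the adjusted p reached 0.10. Nrg4, Snx9, Thrb and Slc37a3 did not pass the test, and Jph4 RNA was listed at or near 0.

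Lost and new peaks lay mainly away from promoters. A promoter, taken as 1000 bp before to 100 bp after a transcription start, was touched by 5.02% of lost and 10.5% of new peaks, against 36.9% of shared WT and 37.7% of shared DKO peaks. The gene body held 69.2% of lost and 61.3% of new peaks. By peak centre, which takes no account of width, 3.13% of lost and 6.41% of new peaks were at a promoter, against 17.9% and 18.2% of shared peaks. The median distance to the nearest start was 17.7 kb for lost, 15.1 kb for new, 7.26 kb for shared WT and 7.48 kb for shared DKO peaks. On chromosome X 18.5% of WT peaks were lost and 30.4% of DKO peaks were new, below the shares over the whole lists, and the 5 peaks on Y in each list were shared.

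Most strong lost and new peaks carried H3K4me1 in both genotypes. An H3K4me1 peak of WT overlapped 58.1% of lost and 53.2% of new peaks, and one of DKO 45.8% of lost and 60.9% of new peaks. For shared peaks these shares were 91.2% to 92.3%. Of the 39 lost peaks with at least 100 tags, 39 had an H3K4me1 peak in WT and 32 in DKO. Of the 43 strong new peaks, 38 had one in WT and 41 in DKO, so that in both sets most of the strong regions had H3K4me1 in the genotype without the H3K27ac peak.

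In WT, 5hmC overlapped 23.7% of lost and 18% of new peaks, and 37.7% of shared WT and 39.5% of shared DKO peaks. Among strong lost peaks it overlapped 31 of 39 (79.5%, interval 64.5 to 89.2), above the 61.2% of shared WT peaks with 100 to 444.5 tags. Among strong new peaks it overlapped 27 of 43 (62.8%, 47.9 to 75.6), and among shared DKO peaks with 100 to 231.6 tags 48.7%.

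ATAC-Seq, which reads open chromatin, was present at few lost peaks as a whole. The share with an ATAC-Seq peak was 9.27% and 10.8% in the WT libraries and 6.67% and 9.47% in DKO, which overlap (two-sided exact permutation p = 0.667). With the 47639 highest scoring peaks of each library, the shares were 9.27% and 8.78% in WT and 6.16% and 6.19% in DKO. These do not overlap (exact permutation p = 0.33). New peaks had 15.4% and 16.6% in WT and 17.6% and 21.3% in DKO (exact permutation p = 0.33, the smallest that 2 against 2 libraries allow). The gap between genotypes was wider at the strong lost peaks. Of these 39, 30 and 29 had an ATAC-Seq peak in the WT libraries (76.9% and 74.4%), and 7 and 15 in the DKO libraries (17.9% and 38.5%), with no overlap between genotypes (exact permutation p = 0.33). Shared WT peaks of the same tag range had 94.3% and 92.0% in WT and 90.7% and 95.3% in DKO. The strong new peaks were already accessible in WT, with 74.4% and 69.8% of 43 in WT and 79.1% and 88.4% in DKO.

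**Figure D2:**
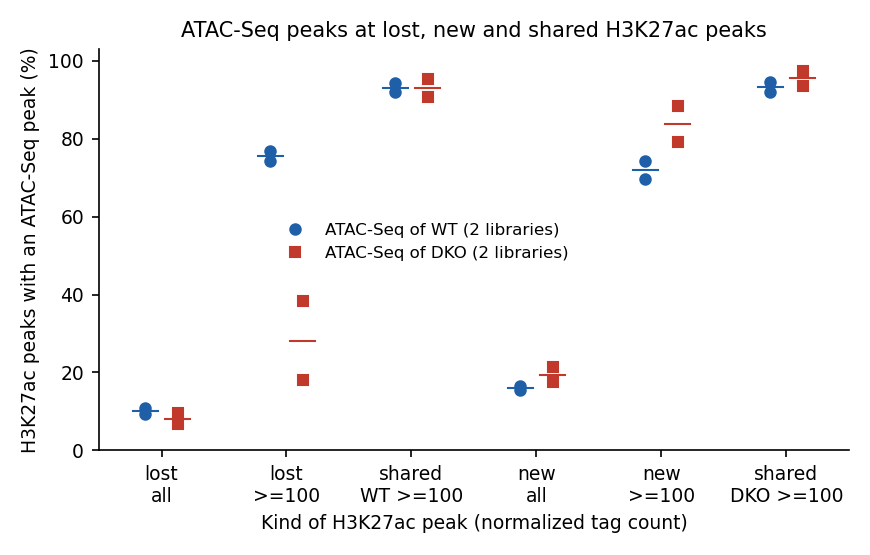
Share of H3K27ac peaks that overlap an ATAC-Seq peak (%), by kind of H3K27ac peak, all or with a normalized tag count of at least 100. Blue circles are the 2 WT and red squares the 2 DKO ATAC-Seq libraries and lines their means; strong lost peaks have 76.9% and 74.4% in WT against 17.9% and 38.5% in DKO, a wider gap than in the other kinds plotted.

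HNF6, a liver transcription factor encoded by Onecut1, had a peak at 5 and 8 of the 39 strong lost peaks in WT and at 1 and 2 in DKO. At all lost peaks the shares were 1.19% and 2.13% in WT and 1.49% and 4.24% in DKO. The second DKO library of HNF6 stood apart with 34665 peaks against 4387 to 9355 in the other 3. At shared WT peaks of the tag range of the strong lost ones, HNF6 was present in 14.7% and 23.4% in WT and 26.6% and 49.1% in DKO, and at the 43 strong new peaks in 3 and 3 in WT and 7 and 22 in DKO. With the 4387 highest scoring peaks of each library, 5 and 6 of the strong lost peaks had HNF6 in WT and 0 and 1 in DKO. The higher DKO values at the other peaks mostly went away under this rule. The shared WT peaks of that tag range then had 14.7% and 14.4% in WT and 16.3% and 16.0% in DKO. The strong new peaks had 3 and 2 of 43 in WT and 2 and 4 in DKO. No p below 0.33 was possible here.

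DNA methylation was higher in DKO over H3K27ac peaks of every kind. Over 41640 tiles in lost peaks the mean was 76.4% in newborn, 65.2% in WT and 79.0% in DKO, a difference between DKO and WT of 13.8 points. In shared WT peaks the means were 49.1%, 37.7% and 52.7%, a difference of 15.1 points, and in new peaks 65.4%, 59.9% and 68.7%, a difference of 8.75. Over the 7611468 tiles outside peaks the mean difference was -0.22 points, although 88205 of these tiles gained at least 35 points. Lost peaks thus had a higher methylation level than shared WT peaks in newborn, WT and DKO, but a similar difference between DKO and WT. A gain in this report means DKO above adult WT, not a rise from the newborn level. Coverage is not in the file, and the depth behind each percentage is not known.

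Tiles at least 35 points higher in DKO than in WT, a limit taken from the study's rule for regions demethylated after birth, made up 18.1% of tiles in lost peaks, 18.4% in shared WT peaks and 10.1% in new peaks. They made up 1.98% of all 8049849 tiles. Of 159330 such tiles, 37.2% lay in a WT peak, where 4.01% of all tiles lay. Tiles at least 35 points lower in DKO numbered 19326, and 0.621% of them lay in a WT peak. In the 39 strong lost peaks the mean difference was 24.1 points and 34.2% of 748 tiles gained 35 points, against 15.3 points and 18.5% in shared WT peaks of the same tag range. The strong new peaks gained 11 points, beside 11.9 in shared DKO peaks of their tag range.

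Peaks of like strength differed by whether they held a tile with this gain. With the WT peaks in 5 groups of equal size by tag count, in the strongest group 83 of 6320 with such a tile were lost (1.31%) and 0 of 2059 without one (interval up to 0.186%). In the next group, 11.2% with and 1.60% without a tile were lost, and in the middle group 35.7% and 22.6%. The 2 weakest groups did not follow this, with 59.2% and 59.2%, and in the weakest 69.4% with and 76.2% without. New peaks went the other way in the 3 weakest groups of the DKO list (63.0% with and 83.9% without, 53.1% and 74.6%, 30.7% and 48.4%). The 2 strongest DKO groups differed little, with 9.86% and 10.7%, and in the strongest 0.583% with and 0.452% without.

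The tag ratio at shared pairs followed the same division. Its median log2 value was 0.25 in 10484 pairs with a tile that gained 35 points and 0.82 in 11212 pairs without one. With at least 3 such tiles it was 0.07 (4055 pairs). With pairs in 4 groups by mean tag level, those with a tile were lower in each, at -0.15 against 0.34, -0.13 against 0.97, 0.23 against 0.92 and 0.49 against 0.91. Per kb of peak the medians were 0.16 and 0.45. Wider peaks hold more tiles, and the part of peak width was tested no further than this.

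**Figure D3:**
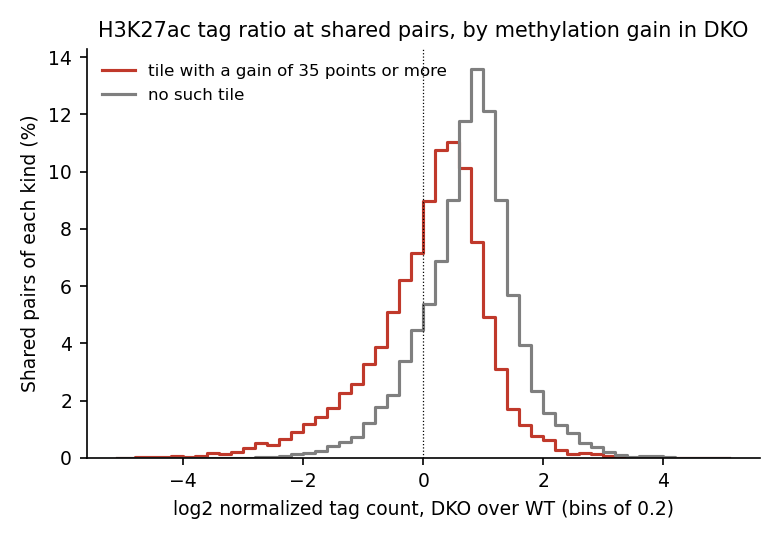
Distribution of the log2 ratio of normalized tag count, DKO over WT, at shared H3K27ac pairs, as percent of pairs per bin of 0.2. The red line is the 10484 pairs with a WGBS tile at least 35 points higher in DKO (median 0.25), the grey line the 11212 pairs without one (median 0.82), and the dotted line marks equal tags.

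The strongest lost peak covered 10456 bp of Tnfaip8l1 (chr17:56302080-56312535), which encodes a protein of the TIPE family, with 444.5 tags in WT. Of its 50 tiles, 25 gained at least 35 points, and its mean methylation was 71.0% in newborn, 44.1% in WT and 77.6% in DKO. It was the only WT peak linked to the gene, and the 1 DKO peak linked to the gene was new. Tnfaip8l1 RNA was 5.36, 4.94 and 7.83 FPKM in controls and 0.33, 0.22 and 0.38 in DKO. The groups did not overlap and the log2 difference was -2.40 ± 0.23 (limma adjusted p = 1.43e-05).

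**Figure D4:**
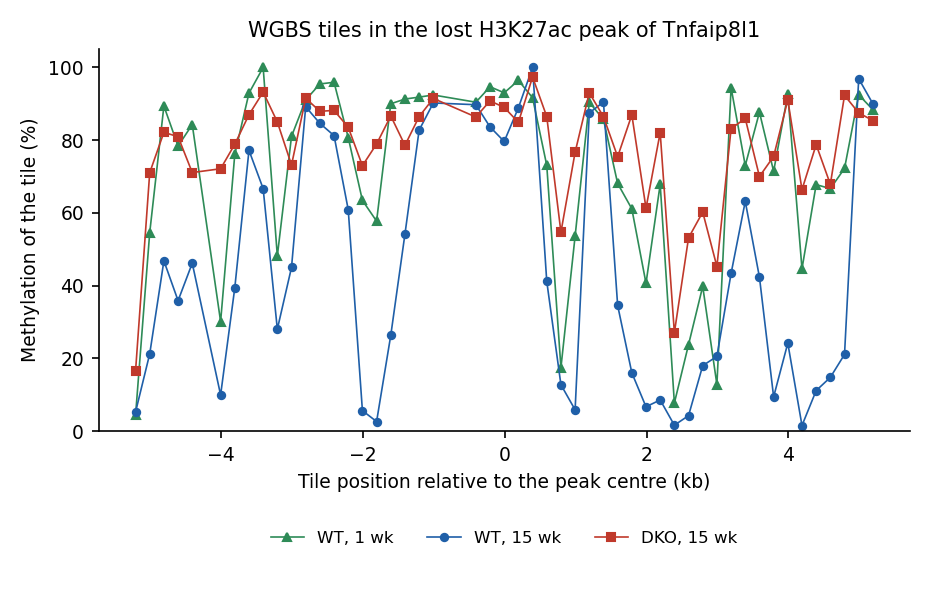
Methylation (%) of the 200 bp WGBS tiles in the strongest lost H3K27ac peak, at Tnfaip8l1, against distance from the peak centre (kb), in newborn WT, WT and DKO. WT dips below 10% in tiles on either side of the centre, where DKO stays higher in each and newborn in most; the centre itself is methylated in all 3 libraries.

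The next lost peaks were near Fam65b (294 tags), at Atp9a (253.4), which encodes a phospholipid flippase, and in Acadm (248.1), the medium-chain acyl-CoA dehydrogenase of fatty acid oxidation. Others were in Hhipl1 (189.5) and near Gcgr (187.8), the glucagon receptor. Atp9a RNA fell from 24.1, 25.2 and 23.5 FPKM to 9.26, 7.04 and 9.06 (log2 difference -1.43 ± 0.14, limma adjusted p = 2.18e-05). Acadm fell from 74.0, 78.0 and 90.6 to 40.7, 50.3 and 53.0 FPKM (limma adjusted p = 0.013), and this call was lost when either of 2 libraries was left out. The gene was also linked to 1 new peak. Gcgr had 141, 177 and 136 FPKM in controls and 137, 170 and 151 in DKO, which overlap (limma adjusted p = 0.94). Fam65b and Hhipl1 were below the filter of a mean of 1 FPKM.

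The strongest new peaks were near Hjurp (231.6 tags), which encodes a chaperone of centromeric histone, near the predicted gene Gm7102 (221.1), and at the promoter of Srgap2 (181.2). They were followed by peaks 71.0 kb from the start of Mrpl14 (180.4), at Pi4ka (178.6), a phosphatidylinositol kinase, and at Dagla (169.9), which makes an endocannabinoid. None of the 6 genes passed the test in either direction. Srgap2 had 1.41, 1.93 and 1.14 FPKM in controls and 1.45, 1.22 and 1.29 in DKO, and Mrpl14 24.4, 22.7 and 40.1 against 16.6, 20.4 and 15.0 (limma adjusted p = 0.0503). Gm7102 and Dagla were below the filter. The new Srgap2 promoter peak was unmethylated in every library (5.3%, 3.96% and 6.71%).

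Genes whose only differing peaks were lost were called lower more often, and genes whose only differing peaks were new were called higher more often, than genes with shared peaks only. Each peak was linked to the gene with the nearest start. Of 11092 genes tested, 1744 (15.7%) were called lower and 471 (4.25%) higher in DKO at a limma adjusted p of 0.05. Among 1128 genes with lost peaks only, 262 were lower (23.2%, interval 20.9 to 25.8) and 30 higher (2.66%), with a median log2 difference of -0.19. Among 2124 genes with new peaks only, 286 were lower (13.5%) and 153 higher (7.20%, 6.18 to 8.38), with a median of -0.05. Genes with shared peaks only had 15.1% lower and 3.18% higher, and genes with both lost and new peaks 18.1% and 3.64%. The 1606 genes with no peak had 9.90% lower and 4.67% higher, at a median control level of 2.21 FPKM. Most genes of every class were not called.

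The median of all genes tested was -0.11 log2 units, so the split between lower and higher depended on scaling. With each library centred on its median, chosen after seeing the data, 11.9% of genes were lower and 12.9% higher. Over all tested rows, where some genes have more than 1 row, 47.7% of calls were lower in place of 78.3%. The contrasts of both classes with shared peaks only kept their direction: 18.9% of genes with lost peaks only were lower, against 11.3% with shared peaks only, and 18.2% of genes with new peaks only were higher, against 13.1%. Centring shifts the log2 difference of every gene by the same amount, so it is a weak check of these contrasts. With lost and new peaks limited to those above the median tag count of their list, also chosen after seeing the data, 29.2% of 778 genes with lost peaks only were lower. The calls also rested on single libraries, since without control library 3 only 657 genes were lower and 211 higher, and without DKO library 1 716 and 272. Without control library 3, 11.2% of genes with lost peaks only were lower, against 4.41% of those with shared peaks only. The same share was 11.9% without DKO library 1 and 15.1% without DKO library 3, beside 6.45% and 9.02% of all genes. Without control library 3, 4.05% of genes with new peaks only were higher, beside 1.90% of all genes. The classes also differed in peaks per gene, with a median of 3 WT peaks for lost only and 1 for shared only, and in expression, with a median control level of 5.89 FPKM for lost only, 4.20 for new only and 5.12 for shared only. In bulk samples, fewer cells of a type and less RNA per cell cannot be told apart.

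Promoter H3K27ac followed RNA mainly for large falls. In 7608 genes with a shared pair at the promoter, the median log2 tag ratio was 0.71 for genes called lower, 0.89 for those not called and 1.05 for those called higher. For the 139 genes lower by at least 1 log2 unit it was 0.06, and 45.3% of these pairs were below 0, against 4.97% of all. For the 39 genes higher by at least 1 unit it was 0.96. Per kb of peak the medians lay closer together, at 0.60 for genes called lower, 0.67 for not called and 0.71 for called higher. Per kb it was 0.21 for genes lower by at least 1 unit, 0.62 for those higher by at least 1 and 0.66 for all. Only peaks that overlap each other and nothing else entered, so a lost or split promoter peak is not counted.

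The 3 largest falls of RNA among genes with lost peaks only were in P450 genes of drug and steroid metabolism, Cyp2c37, Cyp2c29 and Cyp2a5. Cyp2c37 had 173, 117 and 170 FPKM in controls and 4.75, 5.43 and 2.75 in DKO (log2 difference -4.88 ± 0.40, limma adjusted p = 3.29e-06). Its lost peak was at the promoter (9.32 tags), in a tile methylated to 55.2% in newborn, 8% in WT and 68% in DKO. Cyp2c29 had 761, 469 and 647 against 25.3, 30.3 and 15.4 FPKM (-4.69 ± 0.24, limma adjusted p = 3.75e-08). It lost 3 weak peaks of 13.7 to 20.3 tags, and its shared promoter peak of 191.8 tags in WT was met by 2 peaks of 12 and 26.9 tags in DKO. Since these paralogs are similar in sequence and it is not stated how reads mapping to several were counted, single members are uncertain.

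Cyp2a5 had 209, 144 and 315 FPKM in controls and 9.58, 14.2 and 6.86 in DKO (-4.30 ± 0.34, limma adjusted p = 2.98e-06). All of its 4 WT peaks were lost, of 7.66 to 27.3 tags, the strongest at the promoter. Cyp2e1, which oxidises ethanol and other small molecules, had 2366, 1542 and 2270 against 207, 194 and 85.3 FPKM (-3.74 ± 0.35, limma adjusted p = 1.04e-05). Its broad promoter domain of 14907 bp and 590.7 tags in WT was met by 3509 bp and 73.3 tags in DKO, and 17 of the tiles in the WT domain gained 35 points. For Cyp2c54 the values were 132, 89.3 and 139 against 9.99, 13.0 and 5.46 FPKM. Its lost peak had 4.99 tags, and its shared promoter peak went from 55.3 to 15.6.

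The next largest fall was in Oat, the ornithine aminotransferase, with 264, 126 and 288 FPKM in controls and 11.1, 13.7 and 14.9 in DKO (log2 difference -3.91). Slc1a2, a glutamate transporter, had 30.7, 13.6 and 27.4 against 1.1, 1.76 and 0.79. The limma adjusted p was 3.62e-05 for Oat and 0.00066 for Slc1a2. The groups overlap in neither gene, but the choice of these genes required that. Of all 1744 genes called lower, 97.1% had groups that do not overlap. Elovl3, an elongase of very long chain fatty acids, had 182, 190 and 176 against 23.9, 12.2 and 10.3 FPKM (limma adjusted p = 0.020) and lost 4 of 5 WT peaks, among them its promoter peak of 59.6 tags. Its call was lost when any of 3 libraries was left out, with an adjusted p up to 0.068.

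Among genes with new peaks only, Tmem86a, a lysoplasmalogenase, rose from 0.55, 0.78 and 1.07 to 11.9, 17.6 and 20.6 FPKM (3.28 ± 0.22, limma adjusted p = 6.76e-07). Its new promoter peak had 130 tags and its upstream peak went from 8.32 to 125.6. Methylation at that promoter was low in all libraries (11.9%, 14.6% and 16.8%).

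Pnpla3, a triglyceride lipase, rose from 0.20, 0.30 and 0.06 to 6.05, 7.48 and 10.8 FPKM (limma adjusted p = 4.65e-07), and its promoter peak went from 159.2 to 431.7 tags beside 4 new peaks. Cyp4a31, a fatty acid hydroxylase, rose from 2.98, 4.04 and 3.00 to 36.7, 24.3 and 34.6 FPKM (limma adjusted p = 0.0046). Its 2 shared peaks had 14.3 and 13 tags in WT and 15.6 and 11.6 in DKO, and its new peak of 38.1 tags lay upstream.

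Genes under the same rule also took in 4 major urinary proteins, pheromone carriers secreted by male liver: Mup19, Mup2, Mup8 and Mup13. All were listed at 0 in the 3 controls and 3 uninjected WT libraries. The calls of Mup8 and Mup13 were lost when 1 library was left out. Mup19 was listed at 222, 269 and 158 FPKM in DKO, and the other 3 at 114 to 255. Of 14 genes called higher, at 0 in all controls and with at least 10 FPKM on average in DKO, 12 were Mup genes. Alb, the most abundant liver mRNA, was listed at 0 in all of these libraries too, so a value of 0 may be a failed estimate and no fold is given. Peaks near Mup2 were called in both lists, with 24.3 tags at its promoter in WT and 73 in DKO.

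**Figure D5:**
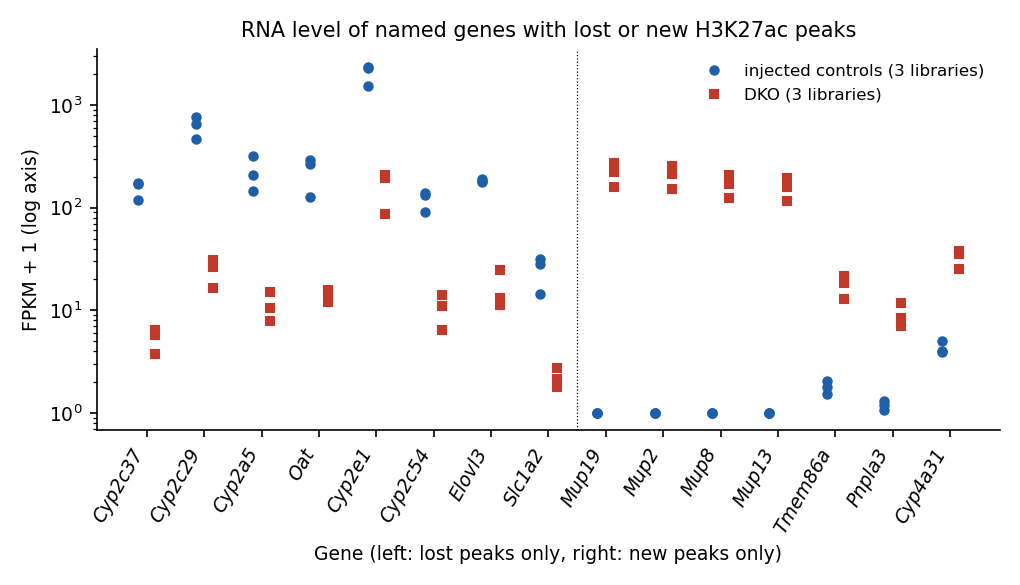
FPKM (log axis, plotted as FPKM + 1) of the named genes with only lost or only new H3K27ac peaks in 3 injected control libraries (blue circles) and 3 DKO libraries (red squares). The genes were chosen for their direction and for groups that do not overlap, so both are fixed by the choice; the Mup genes are listed at 0 in controls.

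Gene groups of liver function held calls in both directions, beside 15.7% lower and 4.25% higher over all genes tested, or 11.9% and 12.9% with centred libraries. Centring changed the counts of lower and higher genes to 9 and 5 in the P450 group, 4 and 2 in the bile acid group, 5 and 0 in the transcription factors, 0 and 0 in the glucose group, 0 and 2 in the fetal genes and 2 and 0 in the urea cycle group, against the uncentred counts that follow. Of 23 P450 genes of xenobiotic metabolism, 9 were lower and 4 higher, with a median of -0.30. Beside those above, Cyp1a2 fell from 335, 209 and 335 to 66.2, 79.5 and 34.8 FPKM although its only differing peak was new. Cyp4a14 rose from 10.4, 22.7 and 4.88 to 373, 176 and 425.6 FPKM (limma adjusted p = 0.0027) with shared peaks only. In uninjected WT it had 141, 52.5 and 104 FPKM, and against that control the log2 difference was 1.71 in place of 4.71 and the call was lost. The kind of peak and the direction of RNA therefore did not match in every gene.

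Of 13 genes of bile acid synthesis and transport, 5 were lower and 1 higher. Cyp8b1, the sterol hydroxylase that sets the ratio of bile acids, fell from 243, 207 and 203 to 53.0, 38.2 and 52.1 FPKM (limma adjusted p = 3.30e-06). Cyp7b1, an oxysterol hydroxylase, fell from 116, 87.6 and 125 to 34.3, 32.1 and 21.5 (limma adjusted p = 0.0054), with 11 lost peaks, the strongest of 52.3 tags, and 3 new ones. Slc10a1, the main transporter that takes up bile acids, rose from 269, 241 and 252 to 558, 608 and 579 (limma adjusted p = 0.00038). Cyp7a1, the rate-limiting enzyme, had 21.0, 7.99 and 3.5 in controls and 7.02, 10.7 and 1.75 in DKO, which overlap.

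Of 21 liver-enriched transcription factors, 6 were lower and 0 higher. Nr1i3, which encodes the nuclear receptor CAR, fell from 33.0, 30.8 and 31.3 to 2.01, 1.74 and 2.04 FPKM (limma adjusted p = 1.96e-05) with shared peaks only. Cebpb fell from 75.6, 96.5 and 79.1 to 53.9, 42.2 and 38.8 (limma adjusted p = 0.0028). Hnf4a (limma adjusted p = 0.036), Nr5a2 (0.0093) and Stat5b (0.045) were also lower, and the calls of Hnf4a and Stat5b were lost when any of 4 libraries was left out, that of Stat5b also against uninjected WT. Onecut1 had 3.73, 9.76 and 0.71 in controls and 46.2, 14.0 and 15.6 in DKO (limma adjusted p = 0.082).

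Of 9 genes of the urea cycle and glutamine, Oat and Glul were lower. Glul, the glutamine synthetase of the cells around the central vein, fell from 186, 76.7 and 184 to 9.76, 11.8 and 11.6 FPKM (limma adjusted p = 0.0010), with 4 lost and 2 new peaks. Of 11 genes of glucose metabolism 1 was lower, Gys2 (limma adjusted p = 0.045, lost when any of 4 libraries was left out). Of 6 fetal liver genes tested, H19 was higher (limma adjusted p = 3.30e-06) with no peak, with 0, 0.039 and 0.014 in controls and 2.49, 4.81 and 3.32 in DKO. Of 8 genes that the study discusses, chosen on these samples and so no independent evidence, 7 were tested and 3 were lower: Cyp7b1, Fto (limma adjusted p = 0.0078) and Scp2 (0.033, lost when any of 4 libraries was left out and against uninjected WT).

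As a sum, hepatocyte markers were abundant in every library, at 18064 to 24037 FPKM in controls and 18118 to 23927 in DKO, with 1 of 9 lower. Alb is among these markers but was listed at 0, so other members carry the sum. Markers of other liver cells had low levels in both groups. The sum of 9 leukocyte markers was 6.05 to 11.4 FPKM in controls and 2.29 to 4.41 in DKO, with 1 of 5 tested lower and Cd3e and Cd79a at or near 0. The sums were 5.93 to 8.99 and 3.45 to 5.73 for endothelial cells, with 1 of 5 lower. Over all genes tested 15.7% were lower, or 11.9% with centred libraries. With centred libraries, 0 leukocyte and 0 endothelial markers were lower. For stellate cells they were 3.64 to 17.6 and 3.36 to 5.23, and for bile duct cells 12.9 to 21.2 and 8.66 to 13.1, with 0 of 4 and 0 of 3 called. Of 5 sex-linked genes, 0 were called. Their part in the falls of RNA and H3K27ac was not tested.

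Shares of windows with a motif were compared in the 300 bp at peak centres. The letters ATCAATA (HNF6), on either strand, were in 2.91% of lost and 2.25% of shared WT windows, 2.48% over all WT peaks. TGTTTAC (FOXA) was in 5.12% and 4.74% (4.87% of all), TTGCNNAA (C/EBP) in 12.3% and 11.8% (11.9%) and TTCNNNGAA (STAT), the same on both strands, in 9.10% and 8.94% (9% of all). CAAAGTCCA (HNF4A) was in 0.652% of lost and 0.882% of shared windows (0.803%), and away from promoters in 0.644% (interval 0.525 to 0.791) and 1.11% (0.969 to 1.28). Away from promoters the direction turned for FOXA (5.16% of lost and 5.54% of shared), C/EBP (12.3% and 13.2%) and STAT (9.07% and 9.75%), and for HNF6 the shares were 2.97% and 2.90%. In new and shared DKO windows the shares were 2.27% and 2.48% for HNF6, 4.56% and 4.71% for FOXA, and 0.715% and 0.868% for HNF4A. CG pairs were fewer in lost windows, with a mean of 3.23 against 8.30 in shared WT windows, and 4.43 in new against 8.59 in shared DKO windows. Away from promoters the means were 3.11 in lost and 3.85 in shared WT windows.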

How the data were processed

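H3K27ac and H3K4me1 ChIP-Seq, ATAC-Seq, HNF6 ChIP-Seq, 5hmC, WGBS and RNA-Seq of mouse hepatocytes or liver were used. The authors trimmed ChIP-Seq reads with cutadapt 1.15, aligned them with Bowtie2 2.2.4 to mm9, removed duplicates and called peaks per library with HOMER findPeaks. H3K27ac was called in histone style with a peak size of 500 bp, a distance of 1000 bp and at least 4-fold over input, per the file headers. From these deposited lists were taken the normalized tag count (a coverage signal scaled to 10000000 tags), the findPeaks score, by which lists were shortened, and the fold over input (a ratio). The authors made methylated fractions with BSMAP 2.74 in 200 bp tiles with no coverage column. The authors made FPKM with TopHat2 and Cufflinks, and 18 of 24 sample columns of that table were used, with 6 not used here. Columns were assigned to groups by name, and library numbers follow the numbers in the column names. The sources do not state that replicates are separate mice, and p values measure only the spread between these samples, which may be technical.

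Overlap meant at least 1 shared bp (Python 3.11.15, numpy 2.4.6, pandas 2.3.3). Peaks were linked to the nearest start and promoters (1000 bp before to 100 bp after a start) in GENCODE vM1. FPKM were tested as log2(FPKM + 1) with limma 3.58.1 (R 4.3.3, trend, Benjamini-Hochberg adjustment) in a fit of all 18 libraries, for 11166 rows whose group mean reached 1 FPKM in any group. The pseudocount makes the fold change of low genes too small. On simulated data for this comparison (10017 genes), 198 of 200 changes of 2 log2 units were recovered, with 7 false calls. Exact permutation tests used scipy 1.17.1. The genes named are those of the 6 strongest lost and 6 strongest new peaks, the 5 largest falls and rises of pairs above the median tag count, the 8 largest falls (lost peaks only) and 8 largest rises (new peaks only) among called genes whose libraries do not overlap, and members of gene lists. Some genes under this rule are not reported here. These members and lists were chosen with earlier results of these data known. RRBS data were not used.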

Additional observations from a re-analysis of the deposited data

How the results depend on the processing

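Without a partner in the other list were, for WT and DKO peaks, 42.8% and 50.6% when 0.5 of the peak had to be covered, 26.7% and 32.8% with no peak within 1 kb, and 35.7% and 36.9% at equal list lengths. For upper-scoring peaks, at or above the median score with ties cut by tag count, these shares were 17.5% and 22.7% against all peaks. Against upper-scoring peaks of the other list they were 41.0% and 46.6%. The median log2 tag ratio at pairs was 0.31 per kb, 0.54 with merged peaks, 0.66 with both peaks upper-scoring and 0.091 scaled to the tags in peaks. By peak centre, promoters held 3.13% of lost, 17.9% of shared WT, 6.41% of new and 18.2% of shared DKO peaks. The difference in ATAC-Seq share, DKO minus WT, turned to -0.85 points in shared WT and -0.69 in shared DKO peaks without DKO library 2 (ranges with 1 library left out -0.85 to 4.67 and -0.69 to 5.00). That of HNF6 at lost peaks turned to -0.17 without DKO library 2 (range -0.17 to 2.58) and to -0.47 with equal numbers of peaks. Methylation differences in the central 1 kb were 13.6 points in lost, 13.6 in shared WT and 13.4 in shared DKO peaks, and medians over tiles were 5.77 in lost, 5.98 in shared WT, 3.07 in new and 5.31 in shared DKO peaks. Counted over tested rows, where some genes have more than 1 row, 657 to 1846 were lower and 219 to 462 higher with 1 library left out. The fewest were without control library 3. Without DKO library 1 there were 717 and 280, and without DKO library 3, 1003 lower. With centred libraries 1448 were higher. Of genes with lost peaks only, 26.0% were lower with upper-scoring peaks and 29.2% with peaks above the median tag count, beside 15.7% of all. With no filter 13.6% were lower (7.37% of all genes), with the 2 groups alone 20.3% (12.5%) and centred 18.9% (11.9%). With 1 library left out the shares were 11.2% to 24.4% (5.92% to 16.6% of all genes). Of genes with new peaks only, 8.53% were higher with peaks above the median tag count (4.25% of all genes) and 5.3% with no filter (2.65%). Against uninjected WT 8.76% were higher (5.36% of all), centred 18.2% (12.9%) and with 1 library left out 4.05% to 6.78% (1.90% to 4.05%). Among 731 alternative values of 61 named genes, 629 kept direction and call, 82 lost the call, 9 gained it and 11 turned direction. The last were in Gcgr (-0.16 against uninjected WT and -0.057 to 0.14 with 1 library left out), Srgap2 (0.048 centred and -0.20 to 0.032 with 1 library left out) and Pi4ka (0.13 centred and -0.079 to 0.11 with 1 library left out). The others were Tet3 (-0.29 against uninjected WT) and Lyz2 (0.042 against uninjected WT). Where a value moved, the cause was not tested. No paired analysis was possible because the column names cannot be matched to the replicate numbers of the labels. With 1 H3K27ac library per genotype, weak peaks near the calling threshold cannot be told from sampling of tags, and 2 against 2 libraries cannot give an exact p below 0.33.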
